A study of Mus musculus with 6 samples.

Results

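Myelin is the lipid-rich sheath that oligodendrocytes wrap around axons in the central nervous system. The genes described here were 7 rows of the deposited gene table, chosen by name: Mbp, Mog, Mag, Mal, Cnp, Mobp and Cldn11. All 7 names were found, each on 1 row, among 41386 genes. Bulk RNA was sequenced from the ipsilateral hippocampus of wild type C57BL/6 male mice aged 56 days. There were 3 libraries after ischemia/reperfusion (I/R) and 3 after sham operation. In the I/R group a filament closed the left middle cerebral artery for 1.5 h, after which blood flow returned for 24 h. The sham mice had the same surgery without the filament. The study describes each replicate as made from several hippocampi, so the p-values below measure the spread between pools.

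Compact myelin forms as the sheath's membranes press together. Myelin basic protein (Mbp) holds the inner membrane faces against each other, and Mobp is a further small basic protein of compact myelin. Mal is a tetraspan proteolipid that takes part in sorting lipids and proteins to the myelin membrane. Cldn11 builds the tight junctions that run between the turns of the sheath. Cnp is an enzyme of non-compact myelin that keeps cytoplasmic channels open. Mag lies in the membrane next to the axon and binds axonal gangliosides. Mog sits on the outermost surface of the sheath and is a known target of autoimmune attack. Oligodendrocytes make these proteins late in their maturation, under transcription factors that include Sox10 and Myrf. In the hippocampus myelin is concentrated in the alveus, the fimbria and the paths that enter from the cortex.

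Promoters of 6 of the 7 genes were taken from the RefSeq table of build GRCm38.p6. It gives 250 bases before and 50 after the start of the gene. Promoters on the chromosome of Mbp were left out, so that of Mbp was not searched. The letters ACAAAG, a core bound by SOX factors and also contained in TCF sites, and CTGGCAC, a form of the MYRF site, were searched on both strands. ACAAAG was present in 18.7% of the 32851 promoters searched and CTGGCAC in 5.01%, again without those on the chromosome of Mbp. The 4 promoters shown belong to the pair of genes with the highest and the pair with the lowest log2 fold change, with these letters or their reverse complements in capitals:
Cldn11 (chr3:31149670-31149969, plus strand): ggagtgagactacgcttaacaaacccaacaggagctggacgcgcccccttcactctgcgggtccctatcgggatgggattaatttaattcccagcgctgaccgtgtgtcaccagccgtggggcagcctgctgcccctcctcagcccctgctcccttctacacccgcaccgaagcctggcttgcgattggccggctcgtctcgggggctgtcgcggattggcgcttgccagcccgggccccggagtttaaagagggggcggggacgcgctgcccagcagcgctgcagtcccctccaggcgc
Mag (1 of 3 start sites, chr7:30914814-30915113, minus strand): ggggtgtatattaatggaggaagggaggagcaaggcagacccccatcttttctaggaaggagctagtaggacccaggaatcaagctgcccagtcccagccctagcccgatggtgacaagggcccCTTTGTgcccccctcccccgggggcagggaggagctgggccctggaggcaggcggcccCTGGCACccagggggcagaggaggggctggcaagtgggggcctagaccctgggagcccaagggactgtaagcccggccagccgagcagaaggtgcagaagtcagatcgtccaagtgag
Cnp (chr11:100574689-100574988, plus strand): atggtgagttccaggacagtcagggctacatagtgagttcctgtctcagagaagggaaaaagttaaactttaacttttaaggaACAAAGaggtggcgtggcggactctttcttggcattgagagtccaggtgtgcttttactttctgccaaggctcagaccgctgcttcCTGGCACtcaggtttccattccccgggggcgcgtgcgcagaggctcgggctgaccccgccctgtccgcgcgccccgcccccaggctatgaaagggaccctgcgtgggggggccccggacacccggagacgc
Mal (chr2:127656646-127656945, minus strand): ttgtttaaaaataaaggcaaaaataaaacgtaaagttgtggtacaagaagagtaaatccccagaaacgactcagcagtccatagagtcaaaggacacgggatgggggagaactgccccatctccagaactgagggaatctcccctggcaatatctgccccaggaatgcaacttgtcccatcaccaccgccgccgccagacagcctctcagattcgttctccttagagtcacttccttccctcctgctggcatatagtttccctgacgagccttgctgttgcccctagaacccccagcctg
Mag and Cnp each held 1 match to ACAAAG and 1 to CTGGCAC, while Cldn11 and Mal held 0 of either. Of the 3 start sites of Mag, 2 held these matches and 1 held 0 of either. The Mobp promoter held 6 matches to ACAAAG and 0 to CTGGCAC, and that of Mog held 0 of either. A match of letters is a description of the sequence and not a binding site.

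In the deposited table, on the BALB/cJ assembly, Mobp lies on chromosome 9 from 118264067 to 118295674 and Cldn11 on chromosome 3 from 27984813 to 27999957. Cnp lies on chromosome 11 from 99510292 to 99527049, Mag on chromosome 7 from 29298000 to 29315153, Mal on chromosome 2 from 125890817 to 125914732 and Mog on chromosome 17 from 36436336 to 36449293. The row of Mbp spans 80046344 to 80159892 on chromosome 18. Each row covers a whole gene, so alternative transcripts of Mbp, Mag or Mobp were not told apart. Cnp shares 8846 bases with Dnajc7 on the opposite strand, and since the use of strand in counting is not stated, its count is uncertain in that stretch. Of the 50-base stretches of GENCODE M21 transcripts, 3.01% for Cnp, 0.614% for Mobp, 0.345% for Mbp and 0.281% for Mag also occurred in transcripts of other genes, and 0 for Mog, Mal and Cldn11.

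The libraries held 37493042 to 44788547 counts. The scaling factors by trimmed mean of M-values (TMM) were 1.06 to 1.15 in I/R and 0.908 to 0.920 in sham. Libraries stood apart in what else they contained. Summed over 7 markers of neurons, the level was 2190, 3977 and 4388 CPM (counts scaled to a common library size) in I/R replicates 1, 2 and 3 and 7594 to 7977 CPM in sham, so that I/R replicate 1 had the fewest neuronal transcripts. Summed over 8 markers of choroid plexus, it was 33.7 CPM in I/R replicate 3 and 36.8 CPM in sham replicate 1, against 1610 to 4455 CPM in the other 4 libraries. Oligodendrocyte transcripts were present in all 6. The 7 myelin genes summed to 6208, 5137 and 5390 CPM in I/R and to 6288, 5908 and 6985 CPM in sham, and these ranges overlapped. They took 0.536% to 0.714% of the counts of a library. Markers of the Schwann cell, which makes the myelin of peripheral nerve, were far lower, at 8.63 to 19.1 CPM in I/R and 4.13 to 5.25 CPM in sham summed over 6 genes, with Pmp2 at 0 counts in every library.

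**Figure D1:**
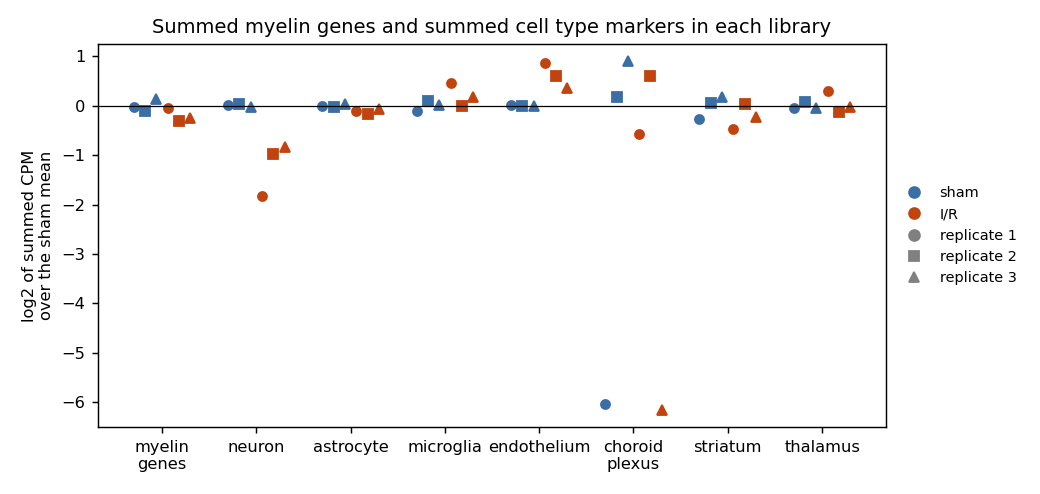
Summed CPM of the 7 myelin genes and of marker lists, as log2 over the mean of the 3 sham libraries, with 1 point per library (blue sham, red I/R, shape for the replicate number). The myelin genes stay near 0, neuronal markers are lower in all I/R libraries and most so in replicate 1, and choroid plexus markers are very low in sham replicate 1 and I/R replicate 3.

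In sham hippocampus, levels per length (FPKM, the authors' values) fell into a steep order. Mbp stood first at 1817 ± 143 FPKM (SD, n = 3), followed by Mobp at 500 ± 46.0, Cnp at 205 ± 21.7, Mal at 189 ± 29.6, Cldn11 at 122 ± 17.1, Mag at 108 ± 9.96 and Mog at 59.0 ± 6.73. The libraries of neighbouring genes did not overlap, except between Cnp and Mal and between Cldn11 and Mag, which overlapped although the first of each pair was higher in each of 3 libraries. After I/R, Mbp (1655 ± 165 FPKM) and Mobp (630 ± 127) were still first and Mog (64.3 ± 17.7) last. Between them the order was Cldn11 at 209 ± 38.6, Mag at 185 ± 58.7, Cnp at 185 ± 33.6 and Mal at 168 ± 10.6 FPKM, and within these 4 the libraries of each gene overlapped with those of the next in order. Cldn11 and Mag thus stood below Cnp and Mal in every sham library, whereas in I/R Cldn11 was above both in every library and Mag overlapped with both. The gene length behind an FPKM was shorter than the deposited length for 6 of the 7 genes (1862 against 4797 bases for Mbp). For Cldn11 the 2 were equal (1870 bases), so the order of genes depends on which length is taken. FPKM were scaled by total counts without TMM, so a difference between groups is not the same as in CPM. Mog averaged 59.0 FPKM in sham and 64.3 in I/R, but 75.1 CPM in sham and 68.1 in I/R.

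The comparison of I/R with sham asks how the transcripts of the myelin sheath stood 1 day after ischemia. The myelin genes did not move as a block. In edgeR's quasi-likelihood fit, with p-values adjusted by Benjamini-Hochberg, Cldn11 was higher in I/R, Mal and Cnp were lower, and Mbp, Mag, Mobp and Mog did not pass. A call needed an adjusted p under 0.05 together with a change of over 1.2 times. That is 3 of 7 genes, or 42.9%, where 41.8% of all 18569 genes tested were called (21.8% higher and 19.9% lower), so the share of calls is about that of all genes. The libraries of the groups did not overlap for 5 of the 7, against 57.4% of all genes. Of these, 2 were higher (Cldn11 and Mag), as were 29.3% of all genes, and 3 were lower (Mbp, Mal and Cnp), as were 28.1% of all genes. The median log2 fold change of the 7 was -0.14, and that of all genes tested was 0.03. In bulk tissue, fewer cells of a type and less RNA per cell cannot be told apart.

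**Figure D2:**
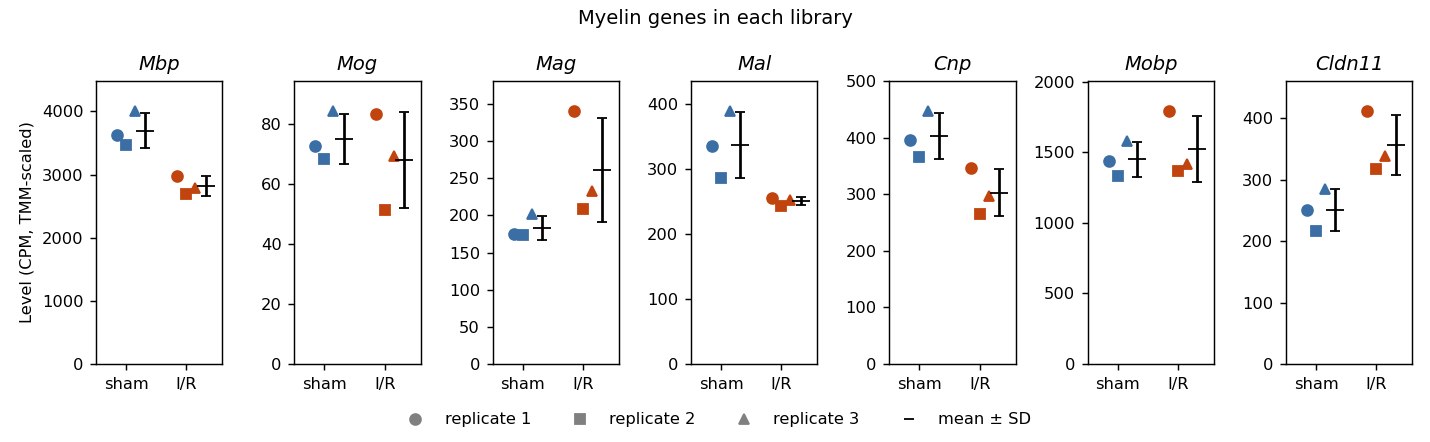
TMM-scaled CPM of each of the 7 myelin genes in each library (blue sham, red I/R, shape for the replicate number), with the mean ± SD of 3 libraries beside them and a separate axis from 0 for each gene. All I/R libraries lie above all sham libraries for Mag and Cldn11 and below them for Mbp, Mal and Cnp, and those of Mog and Mobp overlap.

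Cldn11, the tight junction claudin of the sheath, was at 411, 318 and 338 CPM in I/R replicates 1, 2 and 3 and at 251, 216 and 284 CPM in sham. Every I/R library was above every sham library. The difference between groups was 0.51 log2 units (SE 0.14, edgeR adjusted p 0.0236). The call was lost without sham replicate 1 (edgeR adjusted p 0.0795) or 2 (0.103), at log2 fold changes of 0.50 and 0.40.

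Mag, the adhesion molecule that faces the axon, was at 340, 209 and 233 CPM in I/R and at 175, 173 and 202 CPM in sham. I/R replicate 1 stood well above the others, and the lowest I/R library was just above the highest sham library. At 0.51 log2 units (SE 0.18) the difference did not pass (edgeR adjusted p 0.0560). Without I/R replicate 1 the estimate was 0.26 and its edgeR adjusted p 0.0157, which passed, just over the limit of a 1.2-fold change. It also passed without I/R replicate 2, at 0.62 (edgeR adjusted p 0.0348).

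Mal, the proteolipid of membrane sorting, was at 255, 244 and 253 CPM in I/R and at 336, 287 and 389 CPM in sham. The I/R libraries lay close together and all below sham. On the log2 scale I/R minus sham was -0.43 (SE 0.13, edgeR adjusted p 0.0280). The call was lost without I/R replicate 2 (edgeR adjusted p 0.0811) and without sham replicate 1 (0.0783) or 3 (0.110).

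Cnp, the enzyme of the cytoplasmic channels, was at 347, 265 and 297 CPM in I/R and at 397, 366 and 447 CPM in sham. The groups did not overlap, although I/R replicate 1 came near the lowest sham library. This gave a log2 difference of -0.41 (SE 0.14, edgeR adjusted p 0.0405). The call held without I/R replicate 1, and was lost without I/R replicate 2 (edgeR adjusted p 0.122) or 3 (0.0735) and without sham replicate 1 (0.0957), 2 (0.0630) or 3 (0.146).

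Mbp, the most abundant of the 7, was at 2982, 2685 and 2785 CPM in I/R and at 3618, 3469 and 4000 CPM in sham. All I/R libraries were below all sham libraries. Even so, its log2 fold change of -0.39 (SE 0.15) did not pass (edgeR adjusted p 0.0718). Without I/R replicate 1 it was -0.44 and passed (edgeR adjusted p 5.84e-04).

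Mobp, the second basic protein, was at 1789, 1365 and 1414 CPM in I/R and at 1439, 1328 and 1579 CPM in sham. The groups overlapped, with I/R replicate 1 highest. Its log2 fold change was 0.07 (SE 0.16, edgeR adjusted p 0.745), and without I/R replicate 1 it was -0.06.

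Mog, the surface glycoprotein, was at 83.4, 51.5 and 69.5 CPM in I/R and at 72.6, 68.3 and 84.3 CPM in sham. The groups overlapped, and I/R replicate 2 was the lowest of the 6 libraries. The log2 difference was -0.14 (SE 0.17, edgeR adjusted p 0.546), and without I/R replicate 2 it was 0.01.

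The size of these changes, and which of them passed, depended on how libraries were scaled. The direction turned for Mog alone. With library size only, the median log2 fold change of all genes was 0.28, in place of 0.03 with TMM, and the 7 genes shifted with it. Cldn11 and Mag were then both higher at 0.77 (SE 0.16 and 0.20, edgeR adjusted p 0.00577 and 0.0164). Mal, Cnp and Mbp were at -0.17, -0.15 and -0.13 and did not pass (edgeR adjusted p 0.305, 0.429 and 0.468), and Mobp and Mog were at 0.33 and 0.12. Under that scaling 2 of the 7 were called, both higher, where 45.0% of all genes were called, 34.1% higher and 10.9% lower.

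**Figure D3:**
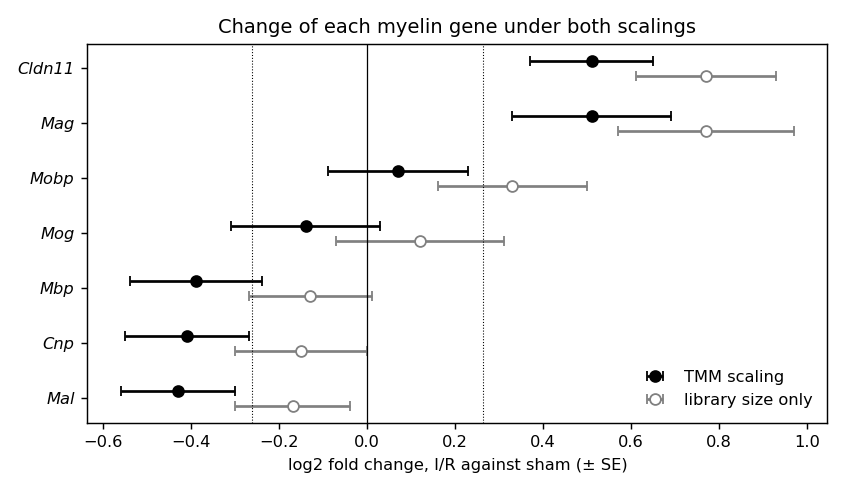
Log2 fold change of I/R against sham for each myelin gene, with bars of 1 SE, under TMM scaling (filled) and with library size only (open). Dotted lines mark a fold change of 1.2. The order of the genes is the same under both scalings, and Mal, Cnp and Mbp come close to 0 with library size only.

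Within a library, the ratio of the counts of 2 genes does not depend on scaling, so all 21 pairs were compared. The changes fell in steps. The ratio of Cldn11 to Mag overlapped between groups, at a difference of 0.03 on the log2 scale (SE 0.12). So did the 3 ratios among Mbp, Mal and Cnp, at differences of 0.00 to 0.03 (SE 0.07 to 0.11), which does not show that these genes changed alike. Between these sets, all 6 ratios were higher in I/R by 0.87 to 0.92 (SE 0.04 to 0.21). The sets were formed after the values were seen and are a description.

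Cldn11 and Cnp gave the tightest of these ratios. For each count of Cnp there were 1.18, 1.2 and 1.14 counts of Cldn11 in the I/R libraries and 0.631, 0.591 and 0.635 in the sham libraries. The log2 ratio was -0.69 ± 0.06 in sham and 0.23 ± 0.04 in I/R (SD, n = 3), without overlap (exact permutation p of 0.1, adjusted p of 0.14 over 21 pairs). Here and below, 3 libraries against 3 cannot give an exact two-sided p under 0.1, so no pair could pass. Mag and Mal gave 1.33, 0.854 and 0.920 counts of Mag per count of Mal in I/R and 0.521, 0.604 and 0.521 in sham. I/R replicate 1 was the highest by far, and without it the change of the log2 ratio was 0.70 in place of 0.89.

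Mobp stood between the sets. Its ratio to Mal, Cnp and Mbp was higher in I/R by 0.48, 0.48 and 0.46 (SE 0.12, 0.04 and 0.08), and Cldn11 and Mag were higher relative to Mobp by 0.44 and 0.41 (SE 0.05 and 0.10). None of these 5 ratios overlapped between groups. Mog was the least settled, since its ratios to Mal and Mbp overlapped between groups, at 0.25 and 0.23 (SE 0.19 and 0.16). In all, 15 of 21 pairs, or 71.4%, did not overlap, and the median size of the change was 0.46. Over 7610851 pairs of the 3902 tested genes with at least 2000 counts in every library, 72.7% did not overlap and the median size was 0.50. Unequal change of 2 genes was thus as frequent among the myelin genes as among abundant genes at large.

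**Figure D4:**
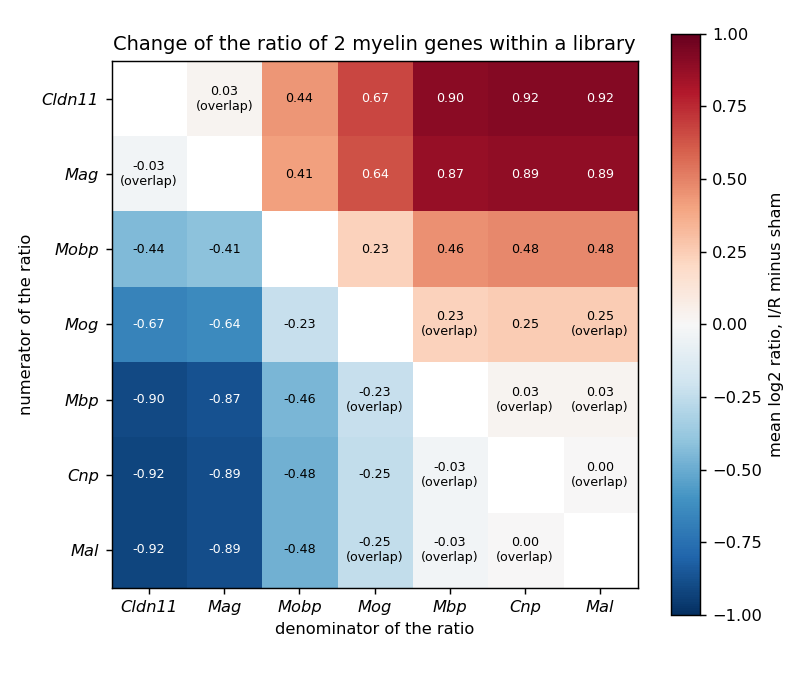
Change of the mean log2 ratio of 2 myelin genes (row over column), I/R minus sham, over 3 libraries in each group. Cells marked overlap are pairs whose libraries overlap between groups. Cldn11 and Mag gain 0.87 to 0.92 over Mbp, Cnp and Mal, and Mobp lies between.

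As shares of the 7 genes' own counts, Mbp went from 57.8% ± 0.775 in sham to 50.7% ± 2.29 in I/R (SD, n = 3 each). Mobp took 22.7% ± 0.211 and 27.2% ± 1.41, Cldn11 3.90% ± 0.213 and 6.36% ± 0.226, and Mag 2.87% ± 0.0790 and 4.62% ± 0.752. Cnp took 6.31% ± 0.101 and 5.42% ± 0.231, Mal 5.25% ± 0.364 and 4.52% ± 0.358, and Mog 1.17% ± 0.0293 and 1.21% ± 0.184. Only for Mog did these shares overlap between groups, and since the shares add up, a change in Mbp alone would move the others.

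Inside each group the 7 genes varied together. All 7 were highest in I/R replicate 1 and lowest in I/R replicate 2, and all 7 were highest in sham replicate 3 and lowest in sham replicate 2. The mean of the 7 centred log2 CPM profiles was 0.19, -0.20 and -0.06 in the I/R libraries and 0.00, -0.12 and 0.18 in the sham libraries. In each group the library with the lowest neuronal sum (I/R replicate 1 and sham replicate 3) had the highest level of each myelin gene. In sham the library with the highest neuronal sum, replicate 2, had the lowest level of each, whereas in I/R the neuronal sum was highest in replicate 3 and the myelin genes were lowest in replicate 2. Whether neuronal content had a part in this was not tested. Among 11107 other genes, the profiles nearest to that of the myelin genes over the 6 libraries were those of Thada, Pdgfra, Mtss1, Nde1 and Gfm2, at root mean square differences of 0.055 to 0.064 log2 units. Pdgfra is the growth factor receptor that marks oligodendrocyte precursors. It was at 84.3, 68.3 and 68.2 CPM in I/R and 72.7, 73.1 and 83.5 CPM in sham, at a log2 fold change of -0.05 (edgeR adjusted p 0.725). The myelin genes themselves were at 0.066 (Mobp) to 0.283 (Mag) from their own mean profile. That profile averages members that rose with members that fell. The 5 genes were picked as the nearest of 11107, so no likeness can be read from their smaller distances.

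The 7 genes were set beside 6 lists of other genes of the oligodendrocyte and of the axon it wraps. Of 73 listed genes 69 were named in the table, and all 69 were tested. Calls were made for 46, or 66.7%, with 19 higher and 27 lower, against the 41.8% of all genes. With library size only the split was 27 higher and 15 lower. The lists were chosen with earlier results of these data known, and some of their genes are also made by neurons. The 66.7% is thus a description of these lists and not independent evidence.

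Among 14 other myelin proteins, 5 were higher, 5 lower and 4 not called, and the median log2 fold change was -0.01. With library size only, 6 were higher and 1 lower, with a median of 0.26. Pmp22, a myelin protein best known from peripheral nerve, was higher at 1.2 (SE 0.18), Gjb1, the connexin of myelin gap junctions, at 1.16 (SE 0.23) and Hapln2, a link protein of the matrix at nodes of Ranvier, at 1.03 (SE 0.11). Hapln2 was at 53.9, 50.4 and 46.0 CPM in I/R and 24.5, 21.8 and 27.2 CPM in sham. The part of other cell types in these rises was not tested. On the lower side were Omg at -0.82 (SE 0.21) and Gpm6b at -0.60 (SE 0.17). Omg and Gpm6b are also made by neurons, whose markers were lower in the same libraries, and the part of neurons in their values was not tested. Of the 10 calls in this list, 6 were left without sham replicate 1 or without sham replicate 3. Omg was not called without sham replicate 2, and Gpm6b lost its call when any of sham replicates 1, 2 and 3 was left out. Gpm6b was also not called with library size only or on FPKM.

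Among 17 enzymes and other products of myelinating cells, 4 were higher, 7 lower and 6 not called, with a median of -0.20. Scaled by library size only, the split turned to 6 higher and 3 lower, with a median of 0.06. Trf (transferrin, the iron carrier) was higher at 1.96 (SE 0.18), Apod (the lipid carrier apolipoprotein D) at 1.77 (SE 0.17) and Elovl1, an elongase of very long fatty acids, at 1.44 (SE 0.24). Trf was at 45.2, 31.3 and 30.9 CPM in I/R and 8.99, 8.27 and 10.4 CPM in sham. Tppp, which bundles microtubules, was lower at -1.25 (SE 0.19), Ugt8a, which makes the galactolipids of myelin, at -0.87 (SE 0.14) and Enpp6, a choline phosphodiesterase of newly formed oligodendrocytes, at -0.85 (SE 0.21). Enpp6 was not called without sham replicate 1 or 3, with library size only or on FPKM. The part of other cell types in these rises and falls was not tested. Enpp2 was the most abundant of the list and is also a product of choroid plexus. It was at 106 CPM in I/R replicate 3 and 134 CPM in sham replicate 1, the libraries low in choroid plexus markers, and at 669 to 1803 CPM in the others, and it was not called (log2 fold change of -0.55, SE 1.03).

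**Figure D5:**
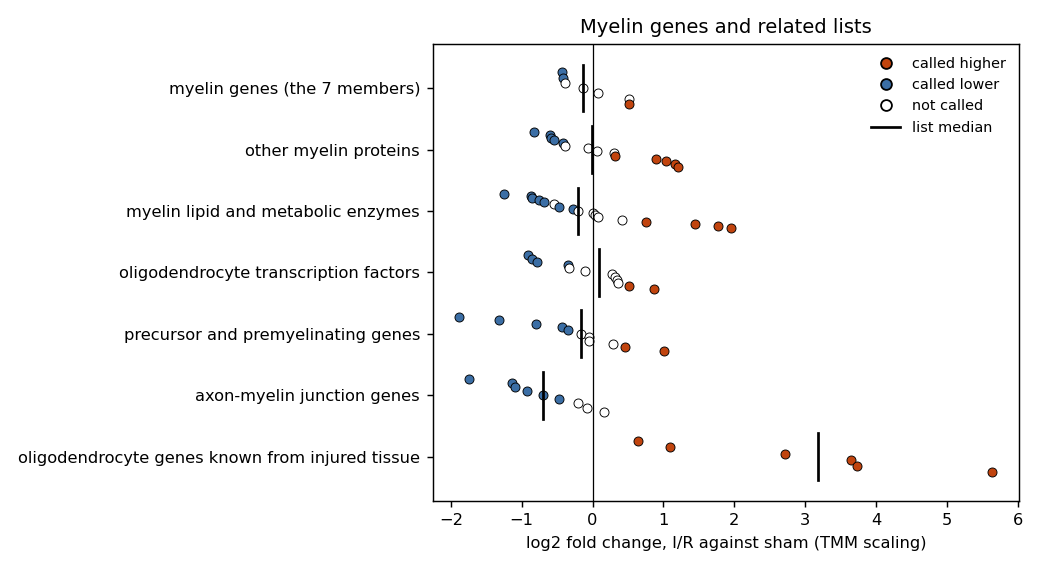
Log2 fold change of every tested gene in the 7 myelin genes and the 6 other lists, with the call by edgeR as colour and the list median as a bar. The myelin genes lie between -0.43 and 0.51, and the list of genes known from injured tissue lies between 0.64 and 5.64.

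Among 12 transcription factors, 2 were higher, 4 lower and 6 not called, with a median of 0.09 (5 higher, 3 lower and 0.35 with library size only). Myrf, the factor that switches on myelin genes, was at 122, 92.5 and 89.1 CPM in I/R and 69.5, 71.5 and 70.1 CPM in sham, or 0.52 on the log2 scale (SE 0.12, edgeR adjusted p 0.0118). Nkx6-2, a homeobox factor of myelinating oligodendrocytes, was higher at 0.87 (SE 0.15). Sox8 was lower at -0.91 (SE 0.13), St18 at -0.86 (SE 0.19) and Olig1, the lineage factor and the most abundant of the list in sham but not in I/R, at -0.79 (SE 0.14). Olig1 was at 58.5, 76.8 and 84.8 CPM in I/R and 116, 125 and 139 CPM in sham. All 5 kept their call with each library left out in turn.

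Among 11 genes of precursors and premyelinating cells, 2 were higher, 5 lower and 4 not called, with a median of -0.17 (3 higher, 3 lower and 0.08 with library size only). Gpr17, a receptor of cells just before myelination, was at 8.61, 17.4 and 23.0 CPM in I/R and 60.0, 57.0 and 63.6 CPM in sham, or -1.88 on the log2 scale (SE 0.30, edgeR adjusted p 0.00257). Neu4, a sialidase, and Cacng4, an auxiliary protein of AMPA receptors, were lower at -1.32 (SE 0.21) and -0.80 (SE 0.10). Ptprz1, a phosphatase also made by astrocytes, was lower at -0.43 (SE 0.11). It lost its call without sham replicate 1 or 3, with library size only and on FPKM. Bcas1, which marks early myelinating cells, was at 366, 231 and 241 CPM in I/R and 142, 128 and 146 CPM in sham, or 1.01 on the log2 scale (SE 0.18, edgeR adjusted p 0.00372). Vcan was higher at 0.46 (SE 0.10).

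Of 9 genes of the junction between axon and myelin, 0 were higher, 6 lower and 3 not called, where 19.9% of all genes were called lower. Their median was -0.70 (1 higher, 5 lower and a median of -0.45 with library size only). The leading falls were in Cntnap1 (the axonal partner at the paranode), at -1.74 (SE 0.24), its binding partner Cntn1, at -1.13 (SE 0.22), and Cadm3, an adhesion molecule of the internodal axon, at -1.09 (SE 0.20). Cntnap1 was at 52.1, 92.9 and 109 CPM in I/R and 275, 294 and 277 CPM in sham, lowest in the I/R library with the fewest neuronal transcripts. Nrcam, the most abundant of the list by the mean over all libraries but in neither group alone, was lower at -0.47 (SE 0.10). It was not called with library size only or on FPKM. These genes are made mainly or partly by neurons, and all 7 neuronal markers tested were lower in I/R, with a median of -1.02. The part of neurons in the values of the junction genes was not tested.

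The genes known from oligodendrocytes of injured tissue were all higher, 6 of 6 tested, where 21.8% of all genes were called higher. Their median was 3.19. The list was chosen with results of these data known, so the count is not independent evidence. The authors themselves report Serpina3n among the immune genes changed in hippocampus in both RNA and protein. Klk6, a secreted protease, was at 29.9, 18.6 and 20.9 CPM in I/R and 0.435, 0.271 and 0.698 CPM in sham, or 5.64 on the log2 scale (SE 0.34, edgeR adjusted p 1.79e-04). Serpina3n, a protease inhibitor also made by reactive astrocytes, was higher at 3.73 (SE 0.25) and Cdkn1a, a cell cycle inhibitor of many cell types, at 3.65 (SE 0.23). Gfap, a marker of astrocytes, was higher in the same libraries at 2.31 (SE 0.17), while of 7 astrocyte markers 2 were higher and 4 lower. The part of astrocytes in these values was not tested.

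Summed levels of the other cell types moved as follows beside the myelin genes. Neuronal markers were lower in I/R as given above. The 7 astrocyte markers summed to 4901 to 5219 CPM in I/R and 5342 to 5638 CPM in sham, with 2 higher and 4 lower. The 6 microglial markers summed to 232 to 323 and 219 to 249 CPM, with 3 higher and 2 lower, and the 4 endothelial markers to 275 to 392 and 214 to 218 CPM, with 3 higher and 1 lower. Markers of striatum (80.9 to 114 CPM in I/R, 92.6 to 127 CPM in sham) and of thalamus (99.0 to 134 and 106 to 115 CPM), which border the hippocampus or its white matter, overlapped between groups in their sums. Of 7 striatal markers 2 were higher (Drd1 at 0.81 and Penk at 0.72) and 1 lower (Ppp1r1b at -0.82), and of 6 thalamic markers 1 was higher (Rgs16 at 1.61) and 1 lower (Slc17a6 at -0.57). In the Schwann cell list, 3 of 4 tested genes (Prx, Dhh and Egr2) were higher in I/R, where 21.8% of all genes were called higher. Their levels were low, with Dhh at 0.295 to 0.494 CPM and Prx at 1.8 to 2.15 CPM in sham. Which cells they came from was not tested. The share of white matter in each dissection was not measured here, and its part in the levels of the myelin genes was not tested.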

How the data were processed

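Per the study's methods, the authors aligned reads with TopHat2 to an Ensembl genome and counted them per gene with HTSeq. The deposited table holds these raw counts and, by the authors, FPKM per library. The labels also name Bowtie 0.12.2 and mm8, while gene identifiers are those of the BALB/cJ annotation. Of 41390 lines, 4 were tails of split lines and were rejoined. Columns with the authors' own fold changes and p-values were not used. How reads in overlapping genes were treated is not given in the sources used here.

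Counts were tested with edgeR 4.0.16 (filterByExpr, TMM, glmQLFit with robust estimation) in R 4.3.3, and p-values adjusted over all genes tested. CPM were computed on the TMM-scaled library size. The SE is the log2 fold change over the square root of F. DESeq2 1.42.0 and limma 3.58.1 gave alternatives (FPKM as log2 of FPKM plus 1 or 0.1). The fit was tested on simulated data. The members and lists were chosen with earlier results of these data known. All 7 myelin genes were named. In each other list the 3 largest rises and falls called and the most abundant gene were named, and the 5 genes nearest in profile among those with a mean of at least 5 CPM (prior count 0.5) and an SD of at least 0.5 times that of the myelin genes' profile. Errors cover the spread between libraries, each from pooled hippocampi, which held 37493042 to 44788547 counts. Not analysed here, for want of a name in the table, were Qdpr, Cadm2, C4b, H2-D1, Map2 and Ly6c1. Some genes that the rule would name are not reported here.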

Additional observations from a re-analysis of the deposited data

How the results depend on the processing

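With 3 of 7 myelin genes called, the count was 0 with a fold change over 2, 5 with an unadjusted p, 5 with the DESeq2 Wald test and 0 in the 4 libraries with choroid plexus RNA, an alternative chosen after seeing the data. When single libraries were left out, the lowest count was 0, in the fit lacking sham replicate 1, and the highest 5, in that lacking I/R replicate 1; it was 1 in those lacking sham replicate 2 or 3. In these fits with 0 calls by edgeR, 5, 1 and 3 genes had an unadjusted p under 0.05 (fold change over 2, 4 libraries, fit lacking sham replicate 1), and fewer samples entered the last 2. Among all genes, the main fit called 7756 of 18569, the DESeq2 Wald test 8386 of 18569 and the 4 libraries 5255 of 18816. Leaving out sham replicate 1, 2 or 3 gave 5611 of 19138, 5330 of 19153 and 5480 of 19246. Leaving out I/R replicate 1 gave 7976 of 18739. With the replicate number as a block 1 myelin gene was called, Cldn11, where 6332 of all 18569 genes were called. Mal and Cnp were then not called (edgeR adjusted p of 0.0540 and 0.0614). The numbers did not pair the libraries, since same-numbered libraries correlated at -0.0895, 0.0588 and -0.173 in their deviations from group means, and not every library correlated best with its own number. Over 17 alternatives the log2 fold change was 0.39 to 0.77 for Cldn11 (called in 14, adjusted p of 0.00432 to 0.113). For Mag it was 0.26 to 0.77 (adjusted p of 0.0157 to 0.174). Mag was called in 7 besides the fit lacking I/R replicate 1, where it passed just over the fold limit. The range was -0.54 to -0.16 for Mal (called in 9, adjusted p of 0.00467 to 0.322) and -0.52 to -0.15 for Cnp (5, 4.16e-04 to 0.429). It was -0.44 to -0.13 for Mbp (3, 5.24e-04 to 0.537), -0.06 to 0.33 for Mobp (0) and -0.31 to 0.12 for Mog (0). Mal and Cnp were also not called on FPKM, each at -0.16, beside -0.17 and -0.15 with library size only. FPKM are likewise scaled by total counts, without TMM. Cnp was not called with upper quartile scaling or at least 10 counts in every library. The cause was not tested. Of the other lists, 46 genes were called, 18 with a fold change over 2 and 34 to 49 under the other alternatives. Of 21 ratios, 15 to 17 did not overlap with libraries left out, a count that cannot fall below 15 that way. More than 3 pools a group would be needed for an exact test to pass.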
